A study of Mus musculus with 4 samples.

Results

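The 9 genes examined here act around glial cell line-derived neurotrophic factor (GDNF) in cultured mouse spermatogonial stem cells (SSCs): the receptor genes Gfra1 and Ret and the transcription factor genes Etv5, Bcl6b, Lhx1, Pou3f1, T, Egr2 and Egr3. They were taken by their symbols from the deposited FPKM table and joined to the count table by gene identifier. All 9 were found among 55335 genes, and all 9 passed the filter on low counts, as did 17262 genes in all. Poly(A) RNA was sequenced from 2 libraries labelled Tex11PM/Y and 2 libraries of wild-type (WT) cells. Both genotypes came from testes of C57/BL6*DBA2 mice at postnatal day 10, and the cells were cultured in a medium the labels call standard, passaged regularly and collected on a cell sorter. Tex11 is an X-linked gene needed for crossovers in meiosis. The labels define neither PM nor the sorted fraction, and do not say whether the libraries of a genotype came from separate animals or cultures. Every p-value given here reflects only how far these samples spread, which may be technical. Both Tex11PM/Y columns carry the same header, so the first is called library A and the second library B.

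SSCs renew themselves and give rise to the male germ line. GDNF, which somatic cells of the testis make, binds GFRA1, a co-receptor anchored in the membrane by a lipid, and the complex activates the receptor tyrosine kinase RET. RET signals through SRC-family kinases, the PI3K and AKT pathway and the RAS and ERK pathway. In cultured mouse germ cells GDNF is known to raise transcripts of Etv5, Bcl6b, Lhx1, Pou3f1, T, Egr2 and Egr3, and Etv5 and Bcl6b are needed for normal SSC maintenance.

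Total counts were 19306140 and 19804951 for libraries A and B of Tex11PM/Y and 19047148 and 19396809 for WT replicates 1 and 2. Tex11, the gene named by the genotype, had 22.7 and 9.32 CPM (counts scaled to TMM library sizes) in Tex11PM/Y libraries A and B. WT replicates 1 and 2 had 66.4 and 126 CPM of this transcript. Its log2 fold change, Tex11PM/Y over WT, was -2.59 (standard error 0.54; edgeR unadjusted p = 0.00187). It did not pass over all genes (edgeR adjusted p = 0.884). Genes with quite different unadjusted p share that adjusted value, such as Bcl6b at 0.0264 and Egr2 at 0.279 (edgeR). The fit put the spread between libraries of a genotype (biological coefficient of variation) at 43.4%. A gene that did not pass is therefore not shown to be unchanged. No change of the Tex11 sequence is described, and a transcript level cannot test one. All 13 genes listed for undifferentiated spermatogonia had counts in every library. The list holds Zbtb16 but also Ddx4 and Dazl, which other germ cells express too, so its sum does not measure that cell type alone. The summed level of the 13 genes was 3760 and 2910 CPM in Tex11PM/Y libraries A and B and 2040 and 2920 CPM in WT replicates 1 and 2. Dazl alone had 1194 and 810 CPM in libraries A and B and 552 and 876.5 CPM in WT replicates 1 and 2. The 12 fibroblast markers were all detected too, at 459 and 5570 CPM in libraries A and B and 15700 and 4410 CPM in WT replicates 1 and 2. The 10 macrophage markers summed to 25.5 and 1240 CPM in libraries A and B and to 673 and 519 CPM in WT replicates 1 and 2. Sertoli markers stayed between 14.9 and 27.3 CPM, with Fshr at 0 counts in all libraries, glial markers between 19.2 and 32.5 CPM and markers of differentiating spermatogonia and meiosis between 379 and 538 CPM. Peritubular myoid markers summed to 7.2 and 31.8 CPM in libraries A and B and to 194 and 33.9 CPM in WT replicates 1 and 2. By these sums library A was the poorest in fibroblast, macrophage and myoid transcripts, and WT replicate 1 the richest in fibroblast and myoid transcripts. In WT replicate 1 Acta2 made up 178 of the 194 CPM of the myoid sum. Myh11 was lowest in that library, at 2.70 CPM, and 3 of the 5 myoid markers were lowest in library A in CPM. The CPM sum holds little of Tagln, with 12 and 9 counts in libraries A and B and 26 and 14 in WT replicates 1 and 2. The deposited TPM of Tagln were 4.27 and 32.4 in libraries A and B and 114 and 35.7 in WT replicates 1 and 2. In TPM Tagln too was thus lowest in library A. Chromosomes 12 and 8 stood apart in WT replicates 2 and 1, with median log2 CPM 0.57 and 0.40 above the mean of the other 3 libraries. On the 8 chromosomes that carry the 9 genes, the same median lay between -0.12 and 0.11 in every library. Fos, Akt1 and Mycn, given below, lie on chromosome 12, where this median was also -0.30 in WT replicate 1. The part of the chromosome 12 shift in their values was not tested. In bulk RNA, fewer cells of a type and less RNA per cell cannot be told apart.

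The promoters of 3 genes are shown first: Gfra1 for the receptor, Etv5 for the factors highest, like Gfra1, in WT replicate 1, and Egr2 for the factors that varied most and were lowest in library A. They run from 250 bases before to 50 bases after a start site and are printed on the gene's own strand from RefSeq (GRCm38.p6, the assembly behind mm10). Capitals mark a match to one of 5 searched motifs. Windows for 5 of the 9 genes were in the table: Gfra1, Etv5, Lhx1, T and Egr2. Etv5 had another listed window, chr16:22438319-22438618. Neither Etv5 start is the gene's 5′ end in the deposited table.
Gfra1, chr19:58455349-58455648, minus strand: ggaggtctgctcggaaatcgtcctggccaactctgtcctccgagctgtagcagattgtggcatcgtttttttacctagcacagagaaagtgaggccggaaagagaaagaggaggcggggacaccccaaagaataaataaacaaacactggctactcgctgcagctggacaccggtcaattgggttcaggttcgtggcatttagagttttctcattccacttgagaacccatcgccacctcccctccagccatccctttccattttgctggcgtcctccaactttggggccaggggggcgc
Etv5, chr16:22439521-22439820, minus strand: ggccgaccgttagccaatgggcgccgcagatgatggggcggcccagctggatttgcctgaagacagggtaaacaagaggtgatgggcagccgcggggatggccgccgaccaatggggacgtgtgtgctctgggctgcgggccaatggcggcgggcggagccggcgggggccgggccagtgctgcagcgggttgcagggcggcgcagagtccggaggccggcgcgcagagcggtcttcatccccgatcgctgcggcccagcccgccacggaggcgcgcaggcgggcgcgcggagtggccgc
Egr2, chr10:67537619-67537918, plus strand: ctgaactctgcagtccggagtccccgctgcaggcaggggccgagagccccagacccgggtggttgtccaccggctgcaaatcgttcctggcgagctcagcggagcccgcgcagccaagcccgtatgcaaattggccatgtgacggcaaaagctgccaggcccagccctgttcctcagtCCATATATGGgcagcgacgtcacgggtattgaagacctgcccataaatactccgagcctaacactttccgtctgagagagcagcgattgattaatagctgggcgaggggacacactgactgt

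The Egr2 window held CCATATATGG, a CArG box, which is the site bound by serum response factor at many immediate-early genes. It ended 63 bases before the start site that is also the gene's 5′ end in the deposited table. Another listed Egr2 start, chr10:67537316-67537615, had a CArG box of its own, CCTTTTTTGG, at the same distance. A CArG box occurred in 1.63% of the 32851 windows of the table. The other motifs, searched on both strands, were GCGNGGGCG for EGR proteins, CCGGAAGT for ETS proteins, TGACGTCA for CREB and TGANTCA for AP-1, found in 5.55%, 3.89%, 1.79% and 7.81% of all windows. None of these had a match in the windows of the 5 genes, and no window of Gfra1, Etv5, Lhx1 or T held any of the 5 motifs. This says only that these letters are not in these windows.

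Ret was the most abundant of the 9 transcripts and T the least, judged on the TPM scale (the authors' transcript abundance scale), which accounts for length. Ret averaged 244 TPM over the 4 libraries and lay above 96.5% of the 16348 genes with a mean of at least 1 TPM. Its lowest library (213 TPM) was above the highest of Gfra1 (102.5 TPM). Gfra1, Pou3f1, Etv5, Egr3 and Egr2 followed with means of 78.8, 69.3, 66.8, 56.7 and 52.8 TPM, Lhx1 with 30.8 TPM and Bcl6b with 18.9 TPM. The ranges of each of these neighbours overlapped, so the order between neighbours is not settled beyond the spread between libraries. Farther apart, the lowest libraries of Gfra1 (61.67 TPM), Pou3f1 (44.37 TPM) and Etv5 (43.15 TPM) lay above the highest of Lhx1 (36.22 TPM) and Bcl6b (33.18 TPM). T averaged 1.36 TPM, and its highest library (1.98 TPM) stood below the lowest of Bcl6b (9.74 TPM).

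**Figure D1:**
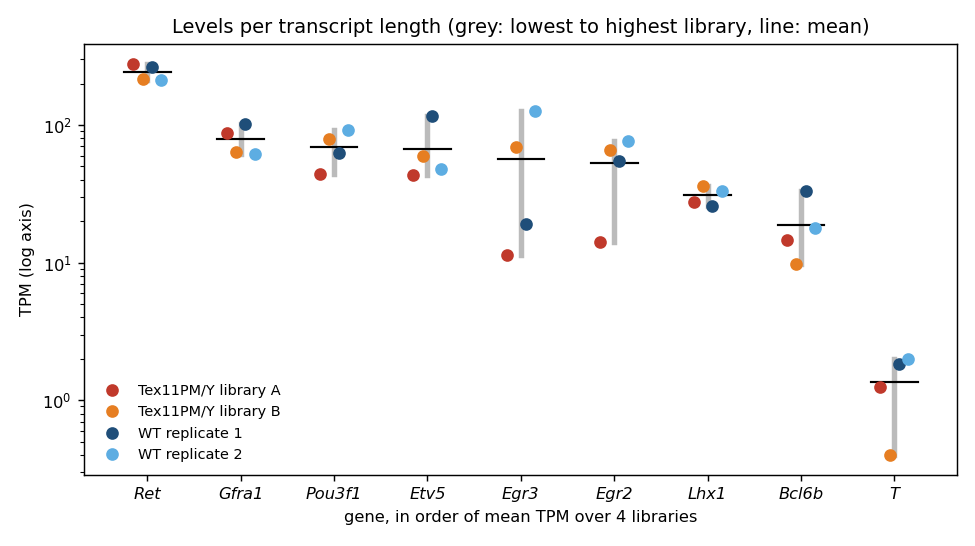
TPM of the 9 genes on a log axis, 1 point per library, with the range in grey and the mean over 4 libraries as a line. Ret stands apart at the top (213 to 280 TPM) and T at the bottom (0.398 to 1.98 TPM), and the other genes overlap with their neighbours.

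Neither receptor transcript passed the test between the genotypes, and for both the groups overlapped. Ret, at chr6:118151745-118197718 on the minus strand (mm10; ENSMUSG00000030110.13), had 498 and 449 CPM in Tex11PM/Y libraries A and B, against 649 and 428 CPM in WT replicates 1 and 2. In CPM WT replicate 1 was the highest and WT replicate 2 the lowest library. In TPM library A was the highest, at 280 against 266 in WT replicate 1. Its log2 fold change, Tex11PM/Y over WT, was -0.19 (standard error 0.33; edgeR quasi-likelihood test, adjusted p = 0.934 over all genes tested).

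Gfra1, at chr19:58235604-58455398 on the minus strand (ENSMUSG00000025089.15), had 141 and 119 CPM in Tex11PM/Y libraries A and B, against 229 and 112 CPM in WT replicates 1 and 2. In CPM the libraries stood in the same order as for Ret. The log2 fold change was -0.39 (standard error 0.39; edgeR adjusted p = 0.886). Without WT replicate 1 the values turned to 0.19 for Gfra1 and 0.13 for Ret.

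Gfra1 and Ret were the pair of the 9 genes with the most similar library pattern. Their log2 CPM values, each centred on the mean of the 4 libraries, differed by a root mean square of 0.173. Gfra1 transcripts amounted to 0.313 and 0.292 of those of Ret in libraries A and B of Tex11PM/Y, and to 0.385 and 0.290 in WT replicates 1 and 2, from TPM. The ratio averaged 0.303 ± 0.0147 in Tex11PM/Y and 0.337 ± 0.0675 in WT (SD, n = 2 each), a difference within the spread of the WT libraries. From counts per kilobase of the deposited gene lengths the means were 0.399 in Tex11PM/Y and 0.448 in WT.

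Etv5 and Bcl6b, factors of the ETS and BTB zinc-finger families, were highest in WT replicate 1. Etv5, at chr16:22381309-22439719 on the minus strand (ENSMUSG00000013089.15), had 66.0 and 104 CPM in Tex11PM/Y libraries A and B, against 247 and 82.2 CPM in WT replicates 1 and 2. Library B thus lay above WT replicate 2, and the groups overlapped. The log2 fold change was -0.95 (standard error 0.53; edgeR adjusted p = 0.884), and 0.04 without WT replicate 1.

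Bcl6b, at chr11:70224128-70229739 on the minus strand (ENSMUSG00000000317.11), had 19.2 and 15.1 CPM in Tex11PM/Y libraries A and B, against 61.0 and 26.8 CPM in WT replicates 1 and 2. Both Tex11PM/Y libraries were below both WT libraries. The means were 17.1 ± 2.89 CPM in Tex11PM/Y and 43.9 ± 24.2 CPM in WT (SD, n = 2 each), with a log2 fold change of -1.35 (standard error 0.49). In the edgeR fit of all 4 libraries with the count filter, Bcl6b alone among the 9 genes had an unadjusted p under 0.05, which 1.71% of all genes reached on the lower side and 0.991% on the higher. With no count filter Etv5 and Egr2 were also under 0.05 unadjusted. After adjustment over all genes Bcl6b did not pass (edgeR adjusted p = 0.884). Without WT replicate 1 its log2 fold change was -0.66. The fibroblast sum was also highest in WT replicate 1, at 15700 CPM, and its part in the levels of Etv5 and Bcl6b was not tested.

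T, which encodes the T-box factor brachyury of early mesoderm, was the least abundant. At chr17:8434423-8442496 on the plus strand (ENSMUSG00000062327.10), it had 22 and 9 counts in Tex11PM/Y libraries A and B, against 38 and 36 counts in WT replicates 1 and 2. These are 1.11 and 0.448 CPM in Tex11PM/Y and 2.13 and 1.82 CPM in WT, where the 3 counts that a count of 0 still allows equal 0.149 to 0.169 CPM. The groups did not overlap, but the log2 fold change of -1.34 had a standard error of 0.75 (edgeR adjusted p = 0.884).

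Lhx1 and Pou3f1, homeobox factors of the LIM and POU classes, were lowest in library A in CPM. Lhx1, at chr11:84518284-84525535 on the minus strand (ENSMUSG00000018698.15), had 42.6 and 62.2 CPM in Tex11PM/Y libraries A and B, against 53.3 and 55.6 CPM in WT replicates 1 and 2. The WT libraries lay between the Tex11PM/Y libraries, and the log2 fold change was -0.06 (standard error 0.34; edgeR adjusted p = 0.983). Lhx1 was the steadiest of the 9 genes in CPM, with 1.46-fold between the highest and the lowest library.

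Pou3f1, at chr4:124656807-124660655 on the plus strand (ENSMUSG00000090125.3), had 66.1 and 135 CPM in Tex11PM/Y libraries A and B, against 129 and 153 CPM in WT replicates 1 and 2. Library A alone was low, and library B lay between the WT libraries. The log2 fold change was -0.49 (standard error 0.39; edgeR adjusted p = 0.884), and -0.06 without library A. An antisense gene, Gm2164, shares 330 exonic bases with Pou3f1 and had at most 16 counts in a library. Another, Gm16277, shares 416 exonic bases with Gfra1 and had 0 counts in every library. That overlap is for a Gfra1 model of 5476 exonic bases, where the deposited length is 4641 bases. The kit is not stated to keep strand, so shared reads cannot be told apart.

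The immediate-early factors Egr2 and Egr3, zinc-finger proteins that ERK signalling induces within a short time, varied most. Egr2, at chr10:67537869-67542188 on the plus strand (ENSMUSG00000037868.15), had 16.5 and 86.8 CPM in Tex11PM/Y libraries A and B, against 87.3 and 97.6 CPM in WT replicates 1 and 2. Library A was far below the rest, and library B lay just below WT replicate 1. In TPM library B, at 66.2, was above WT replicate 1, at 54.9, so the groups overlapped there. The log2 fold change was -0.84 (standard error 0.71; edgeR adjusted p = 0.884). It was -0.09 without library A and -2.53 without library B. The fit without library B compares library A alone with WT, takes its spread from the WT pair and assumes that library A varies likewise. Egr2 passed there (edgeR adjusted p = 0.00811), as did 2.37% of all genes on the lower side.

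Egr3, at chr14:70077203-70082550 on the plus strand (ENSMUSG00000033730.4), had 15.8 and 112 CPM in Tex11PM/Y libraries A and B, against 38.1 and 204.5 CPM in WT replicates 1 and 2. One library of each genotype was low and one high, a 7.05-fold difference within Tex11PM/Y and 5.37-fold within WT. The log2 fold change was -0.93 (standard error 1.16; edgeR adjusted p = 0.905), -2.98 without library B and 0.73 without WT replicate 2. The fibroblast and macrophage sums were also lowest in library A, at 459 and 25.5 CPM. In WT replicate 1, where Egr3 was low too, at 38.1 CPM, the fibroblast sum was highest, at 15700 CPM. The part of these sums in the levels of Egr2 and Egr3 was not tested.

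**Figure D2:**
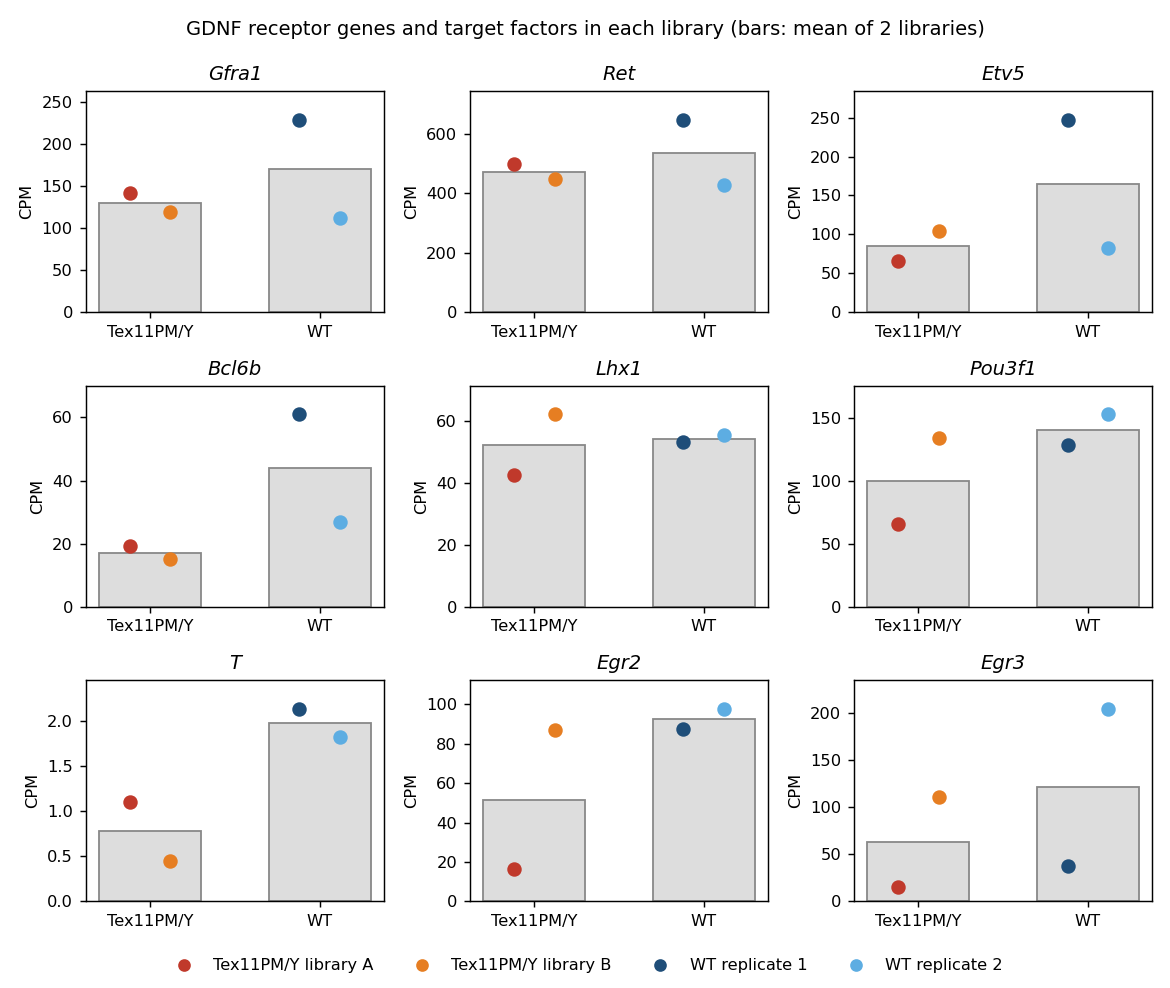
CPM of the 9 genes in each library, 1 point per library, with Tex11PM/Y left and WT right and a bar for the mean of 2 libraries. Bcl6b, T and Egr2 have both Tex11PM/Y points below both WT points, and the points of the other genes overlap between the genotypes.

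As a group, 0 of the 9 genes passed an adjusted p under 0.05, where 0.0% of the 17262 genes tested passed in either direction. All 9 had a fitted log2 fold change below 0, as did 49.0% of all genes, and the median of the 9 was -0.84 against 0.014 over all genes. All 12 fibroblast markers were fitted lower too (median -1.62). Of the 13 germ cell genes listed for undifferentiated spermatogonia, 11 were fitted higher (median 0.28). Their part in the members' values was not tested. On the TPM scale, where the median of all genes moved to 0.177, Ret and Lhx1 turned to 0.05 and 0.11, and Lhx1 turned to 0.01 with library size alone. Relative to the median of all genes they were -0.13 and -0.07 in TPM, and -0.20 and -0.07 in the count fit. DESeq2 called 0.00579% of all genes higher, and edgeR with no count filter called 0.0484% higher and 0.103% lower, with 0 of the 9 genes among them. The groups did not overlap for 3 of the 9 genes (Bcl6b, T and Egr2), all lower in Tex11PM/Y, where 16.3% of all genes were apart in that direction. With library size alone, FPKM or TPM it was 2 of the 9, Bcl6b and T, since Egr2 then overlapped. In the higher direction it was 0 of the 9, against 16.1% of all genes, and 32.4% of all genes were apart in either direction. For 7 of the 9 genes the fold between libraries of one genotype was larger than that between the genotype means, the exceptions being Bcl6b (2.28-fold and 2.56-fold) and T (2.47-fold and 2.54-fold).

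**Figure D3:**
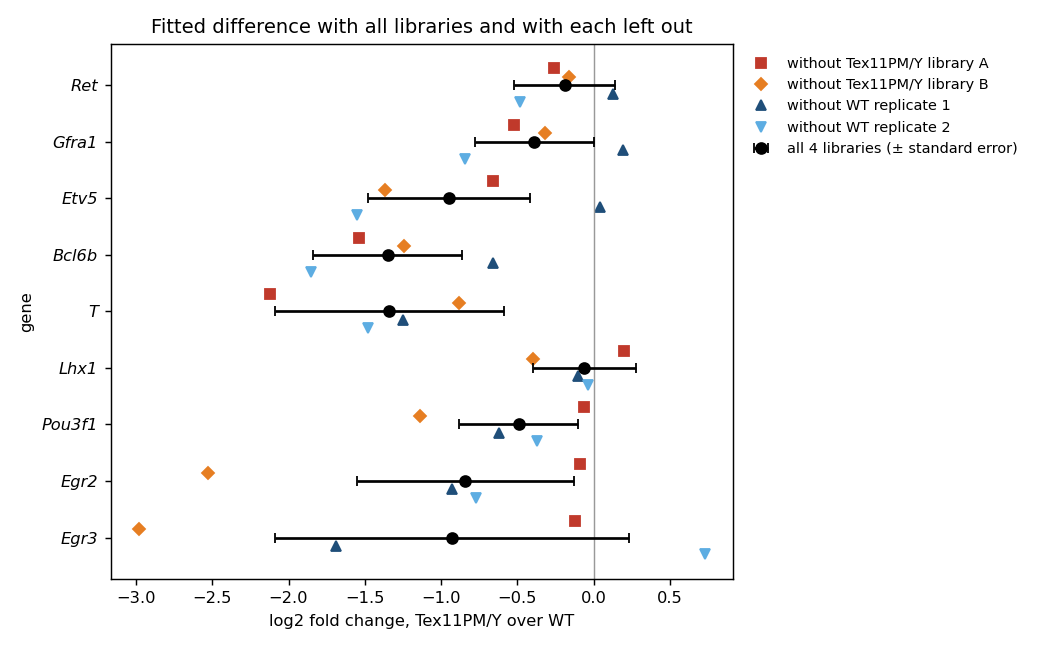
Log2 fold change of Tex11PM/Y over WT for each gene, with all 4 libraries (black, ± standard error) and with each library left out. Bcl6b, T, Pou3f1 and Egr2 stay below 0 in all fits shown, and the largest shifts are those of Egr2 and Egr3 without Tex11PM/Y library B, at -2.53 and -2.98.

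In CPM the 9 genes fell into overlapping sets by the library in which they were highest or lowest. Gfra1, Ret, Etv5, Bcl6b and T, 5 of the 9, were highest in WT replicate 1, as were 34.2% of all genes. Etv5, Lhx1, Pou3f1, Egr2 and Egr3, also 5 of the 9, were lowest in library A, as were 34.4% of all genes. Etv5 belongs to both sets. WT replicate 2 was the highest for Pou3f1, Egr2 and Egr3, as for 14.4% of all genes, and the lowest for Gfra1 and Ret, as for 14.9%. Library B was the highest for Lhx1 and the lowest for Bcl6b and T, each as for 16.3% of all genes. Library A was the highest for 0 of the 9 genes in CPM, against 35.0% of all genes. These sets change in TPM. There Ret was highest in library A (280 TPM, against 266 TPM in WT replicate 1). T was highest in WT replicate 2 (1.98 TPM, against 1.82 TPM in WT replicate 1). Lhx1 was lowest in WT replicate 1 (25.75 TPM, against 27.78 TPM in library A). Egr2 and Egr3 spanned 2.56 and 3.68 on the log2 CPM scale over the 4 libraries, against 0.601 for Ret and 0.547 for Lhx1. Etv5 was nearest in pattern to Gfra1 (root mean square difference 0.446), Pou3f1 to Lhx1 (0.306) and Egr3 to Egr2 (0.820).

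**Figure D4:**
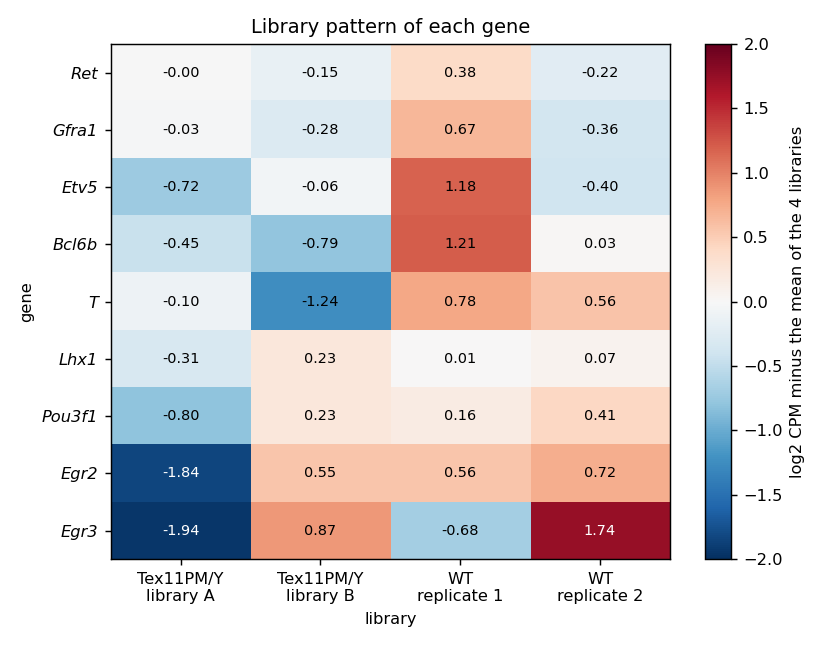
Log2 CPM of each gene minus its mean over the 4 libraries, with Tex11PM/Y libraries left of WT libraries. Egr2 and Egr3 stand at -1.84 and -1.94 in library A, and Etv5 and Bcl6b at 1.18 and 1.21 in WT replicate 1.

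Beyond the 9 genes, those with the most similar pattern over the 4 libraries were Tmed4, Cnih1 and Ago2 for Gfra1, with root mean square differences of 0.0309, 0.0343 and 0.0373 in centred log2 CPM among 8852 genes with a mean of at least 10 CPM. For Ret they were Tmco3, Tmem214 and Snapin (0.0125, 0.0127 and 0.0165), and for Etv5 they were Gprc5b, Slc50a1 and Dtx4 (0.0338, 0.0628 and 0.0697). With 4 libraries many genes come close: 349 lay within 0.2 of Gfra1, 1194 within 0.2 of Ret and 79 within 0.2 of Etv5.

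Gdnf, the ligand, had between 0.149 and 1.48 TPM, below Ret, Gfra1 and the factors Etv5 and Bcl6b in every library. On the CPM scale it had 0.201 and 1.84 CPM in Tex11PM/Y libraries A and B, against 1.85 and 2.53 CPM in WT replicates 1 and 2 (log2 fold change -1.09 ± 0.99, standard error; adjusted p = 0.884 in edgeR). These values rest on few counts, 4 and 37 in libraries A and B and 33 and 50 in WT replicates 1 and 2. In library A, 3 counts equal 0.151 CPM. Library A was the lowest, as for the fibroblast markers, whose part was not tested. Nrtn, which encodes neurturin, had 3.37 and 9.52 CPM in Tex11PM/Y and 9.16 and 9.20 CPM in WT. Of 5 ligand genes 3 were tested, 0 passed in either direction, and their median log2 fold change was -1.09, the value of Gdnf itself. This median was -1.95 without library B, -0.42 without library A and -0.53 without WT replicate 1.

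Of the other co-receptors and receptors 0 of 6 tested passed (median log2 fold change -0.65, but -1.42 without library B and -0.11 without library A). Gfral was at 0 counts in all 4 libraries. Ncam1, an adhesion molecule that also serves as a GDNF receptor, had 4.18 and 15.5 CPM in Tex11PM/Y libraries A and B, against 43.8 and 14.3 CPM in WT replicates 1 and 2. The proteoglycan gene Sdc3 had 12.1 and 64.1 CPM in Tex11PM/Y and 81.3 and 66.4 CPM in WT. The RET-binding protein gene Gas1 had 8.71 and 16.4 CPM in Tex11PM/Y and 23.1 and 18.6 CPM in WT. Gfra3 had 5.84 and 8.52 CPM in Tex11PM/Y and 5.96 and 6.17 CPM in WT.

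The adaptors and kinases that carry the signal from RET had no common direction. Of 20 tested, 0 passed, 9 were fitted higher and 11 lower, and the median log2 fold change was -0.05, which turned to 0.10 without WT replicate 1 and to 0.18 on the TPM scale. The adaptor gene Grb10 had 12.4 and 23.4 CPM in Tex11PM/Y libraries A and B, against 80.8 and 36.5 CPM in WT replicates 1 and 2 (log2 fold change -1.71 ± 0.52, standard error; adjusted p = 0.884 in edgeR). Dok1 had 2.62 and 3.14 CPM in Tex11PM/Y and 15.2 and 5.21 CPM in WT. Grb7 had 27.0 and 31.8 CPM in Tex11PM/Y and 55.5 and 40.0 CPM in WT. In the other direction, the kinase gene Src had 94.5 and 73.5 CPM in Tex11PM/Y and 52.2 and 60.7 CPM in WT (log2 fold change 0.57 ± 0.32, standard error; adjusted p = 0.884 in edgeR).

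Downstream relays of the RAS, ERK and PI3K pathways gave a median log2 fold change of 0.01 over 17 genes, of which 0 passed. The median was -0.19 without library B, 0.12 on the FPKM scale and 0.24 on the TPM scale. Akt1 had 83.4 and 191 CPM in Tex11PM/Y libraries A and B and 239 and 229 CPM in WT replicates 1 and 2. The ERK gene Mapk3 had 89.4 and 112 CPM in Tex11PM/Y and 172 and 102 CPM in WT. Pik3cb, a catalytic subunit of PI3K, had 56.2 and 56.2 CPM in Tex11PM/Y and 41.9 and 49.3 CPM in WT. Groups did not overlap for 4 of the 17 genes, 2 in each direction, where 32.4% of all genes were apart in either direction.

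Several other genes known to respond to GDNF or to ERK signalling were, like Egr2, lowest in library A. Egr1 had 166 and 972 CPM in Tex11PM/Y libraries A and B, against 1221 and 878 CPM in WT replicates 1 and 2. The ERK phosphatase gene Dusp6 had 24.8 and 116 CPM in Tex11PM/Y and 131 and 111 CPM in WT. Fos, an AP-1 subunit, had 14.2 and 107 CPM in Tex11PM/Y and 423 and 227 CPM in WT (log2 fold change -2.43 ± 0.97, standard error; adjusted p = 0.884 in edgeR). Library A was the lowest for 8 of the 14 genes of this list and for 34.4% of all genes.

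Library A did not stand apart for the paralogs Egr4 and Etv4. Egr4, chosen after its values were seen, had 220.4 and 412 CPM in Tex11PM/Y libraries A and B, against 227 and 329 CPM in WT replicates 1 and 2. Etv4, the paralog of Etv5, had 24.5 and 23.6 CPM in Tex11PM/Y and 58.3 and 25.2 CPM in WT, with the same peak in WT replicate 1 as Etv5. The SSC gene Nanos2 had 3.68 and 8.22 CPM in Tex11PM/Y and 3.31 and 7.64 CPM in WT. Mycn had 111 and 108 CPM in Tex11PM/Y and 50.2 and 98.2 CPM in WT, and Tspan8, a tetraspanin gene, had 11.6 and 4.68 CPM in Tex11PM/Y and 2.75 and 4.50 CPM in WT. Of the 14 genes 0 passed, and their median log2 fold change was -0.24, which was -0.95 without library B and turned to 0.16 without library A.

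Among 15 paralogs and partners of the factors, which share Egr1, Egr4 and Etv4 with the list above, 0 passed and the median log2 fold change was 0.18. It turned to -0.58 without library B and to -0.19 without WT replicate 1, and was 0.52 without library A. Nab1, which encodes a co-repressor of EGR proteins, had 102.5 and 73.6 CPM in Tex11PM/Y libraries A and B, against 34.0 and 74.1 CPM in WT replicates 1 and 2. The LIM factor gene Lhx2 had 6.50 and 8.77 CPM in Tex11PM/Y and 6.01 and 16.8 CPM in WT.

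**Figure D5:**
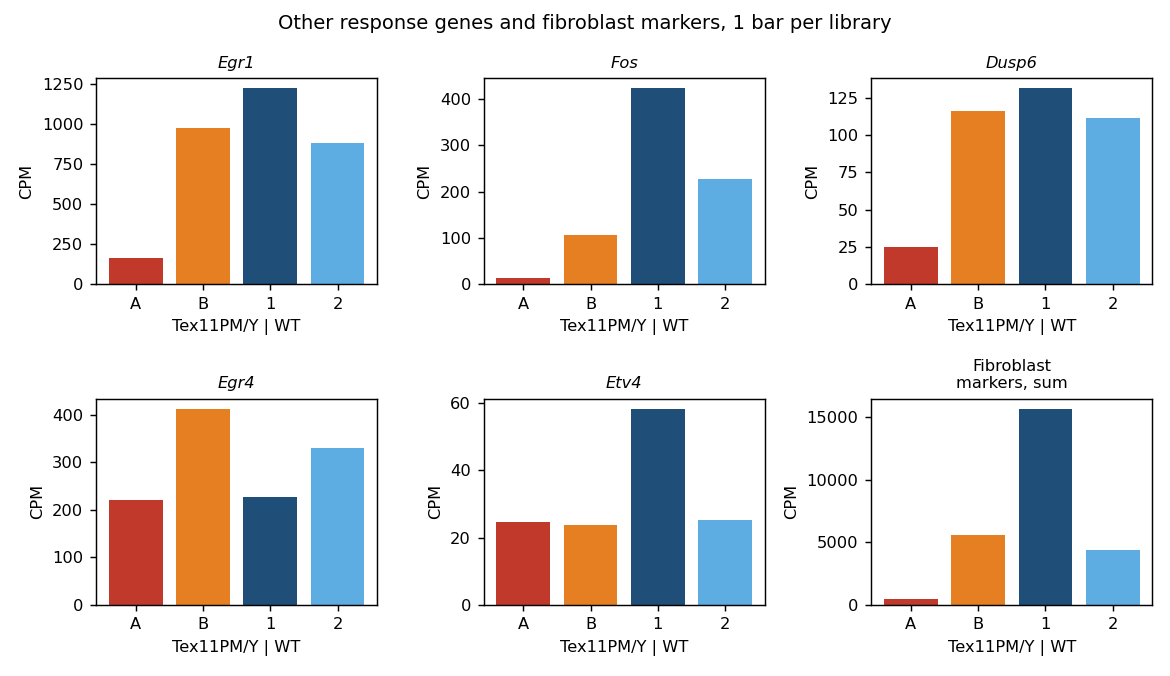
CPM of Egr1, Fos, Dusp6, Egr4 and Etv4 and the summed CPM of 12 fibroblast markers, 1 bar per library, with Tex11PM/Y libraries A and B left of WT replicates 1 and 2. Library A has the lowest bar for Egr1, Fos, Dusp6, Egr4 and the fibroblast sum, and WT replicate 1 the highest for Egr1, Fos, Dusp6, Etv4 and the fibroblast sum.

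Without library B, which left library A as the only Tex11PM/Y library, Egr1 (log2 fold change -2.71), Dusp6 (-2.34), Fos (-4.57), Sdc3 (-2.65), Ncam1 (-2.84) and Grb10 (-2.28) passed beside Egr2. With the spread taken from the WT pair, these calls describe how library A differed from WT, not the genotype. In that fit 2.37% of all genes were lower and 0.394% higher at an edgeR adjusted p under 0.05, and 11 of the 12 fibroblast and 7 of the 10 macrophage markers passed. The part of other cell types and of library A itself in these values was not tested.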

How the data were processed

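The authors deposited a table of raw read counts, whole numbers in a featureCounts layout with gene lengths. FPKM and TPM values of 37653 genes were deposited by the authors as further tables. The tools credited in the submitters' processing notes are STAR, StringTie, fastp, DESeq2 and featureCounts, with the build mm10 and without roles or versions, and no source used here gives the annotation release. Symbols came from the FPKM table. No pair of libraries agreed within sampling noise (chi-square per degree of freedom 18.6 to 217). The closest pair crossed the genotypes: Tex11PM/Y library B and WT replicate 2, at 18.6. Libraries of one genotype were farther apart, at 96.5 for Tex11PM/Y and 94.8 for WT. The other pairs across genotypes were at 86, 86.8 and 217.

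Counts of all genes were fitted with edgeR 4.0.16 in R 4.3.3, after filterByExpr and TMM normalisation, by a robust quasi-likelihood F test with genotype as the only term, two-sided, and Benjamini-Hochberg adjustment with a threshold of 0.05. The fit was run on simulated counts with 200 genes changed by known folds. That check required only that median fitted folds lie close to the true ones, and set no requirement on how many changed genes are called. CPM values used TMM library sizes, and log2 CPM a prior count of 2. With 2 libraries a group, an exact two-sided permutation p is at least 0.333.

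The 9 genes and all lists were chosen with earlier results of these data known. Named list genes were up to 4 per list with the smallest p and a mean of at least 5 CPM, besides Gdnf, Egr1, Fos, Dusp6 and Nanos2. Values of 1 list gene are not reported here, but it counts in its list's totals. For Gfra1, Ret and Etv5 the 3 named genes most like each left out predicted genes, clones and pseudogenes. Other settings were DESeq2 1.42.0, edgeR with its size factors or with library size alone, no filter on counts, at least 1 CPM in 2 libraries, limma 3.58.1 on log2(TPM + 1) and on log2 FPKM with a pseudocount of 1 or 0.1 for genes with at least 0.5 in 2 libraries, and leaving out each library. Exon overlaps came from GENCODE (GRCm38), whose chromosome coordinates are those of mm10. For Gfra1, Bcl6b, Egr2 and Egr3 its start or end of the gene differed from the deposited one.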

Additional observations from a re-analysis of the deposited data

How the results depend on the processing

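With a library left out, log2 fold changes ranged from -0.84 to 0.19 for Gfra1, -0.48 to 0.13 for Ret, -1.55 to 0.04 for Etv5, -0.40 to 0.20 for Lhx1 and -2.98 to 0.73 for Egr3, which was -1.69 without WT replicate 1. They kept their sign from -1.85 to -0.66 for Bcl6b, -2.12 to -0.88 for T, -2.53 to -0.09 for Egr2 and -1.14 to -0.06 for Pou3f1. In the same fits genes past the threshold ranged from 0 to 74 higher and 0 to 444 lower, and members past it from 0 to 1, each with the high value without Tex11PM/Y library B. Members whose groups did not overlap were 7 lower without library B, where 38.1% of all genes were, 6 without WT replicate 2 (37.7%), 5 without WT replicate 1 (27.3%) and 3 without library A (28.8%). They ranged from 0 to 2 higher, where 26.9% to 39.4% of all genes were. With all libraries, Ret turned to 0.05 on log2(TPM + 1), and Lhx1 to 0.11 there and to 0.01 with library size alone. DESeq2 called 1 gene higher, Pkd2l1, named after its values were seen (DESeq2 adjusted p = 0.00191), and with no count filter edgeR called 16 higher and 34 lower. In the fit with all libraries edgeR called 0 genes, with 171 higher and 295 lower at an unadjusted p under 0.05, where DESeq2 had 220 and 555. The order of the 4 libraries was the same in TPM as in CPM for 5 of the 9 genes. Gfra1 over Ret was 0.399 in Tex11PM/Y and 0.448 in WT from counts per kilobase. The cause of these changes was not tested. No paired analysis was possible because the Tex11PM/Y columns carry no separate replicate numbers. T had the fewest counts of the 9 genes, 9 to 38 per library.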
